A study of Mus musculus with 3 samples.

Results

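The genes described here are 8 genes of cholesterol synthesis and sterol transport: Hmgcs1, Idi1, Fdps, Sqle, Lss, Dhcr7, Insig1 and Stard4. They were chosen by name, with every array probe that the files assign to them, which gave 10 probes of 39429 and 8 genes of the 20390 tested. Expression was measured in mouse embryoid bodies, clumps of stem cells that differentiate into a mixture of tissues in culture without LIF, a cytokine used to maintain pluripotency. The tested embryoid bodies (label Dido3deltaCT+HADido3CT, called mutant+CT here) carry a Dido3 protein without its C-terminal region and also overexpress the missing region, encoded by exon 16. They were compared with wild-type embryoid bodies, and both were grown for 10 days in suspension without LIF. There were 3 biological replicates of either kind, per the labels, and every one of 3 two-colour arrays carried 1 mutant+CT and 1 wild-type RNA. No sample analysed here carried the truncation alone or the added region alone, so the effects of the pair cannot be told apart.

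Cells make cholesterol from acetyl-CoA by way of mevalonate, isoprenoid diphosphates, squalene and lanosterol. When sterol in the endoplasmic reticulum is low, SCAP escorts the SREBP transcription factors to the Golgi, where they are cleaved and freed to activate the genes of synthesis and uptake. INSIG proteins hold SCAP back when sterol is plentiful. Carriers with a START domain, such as STARD4, move cholesterol between membranes, and the developing embryo depends on its own synthesis in many tissues.

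The upstream sequences of the 3 members that were lower in mutant+CT on every array are shown because SREBP-responsive genes are often read through short upstream elements. They are the 250 bases before the RefSeq start on GRCm38.p6, plus strand, 5′ to 3′, and the table of RefSeq sequences used here covers 5 of the 8 members in 7 windows. Windows of Sqle, Fdps and Stard4 were not analysed here. Capitals mark matches on either strand to the sterol regulatory element TCACNCCAC, to the CCAAT box, which reads ATTGG when it lies on the opposite strand, and to the GC box GGGCGG, with no overlap between any of them. The Hmgcs1 window is chr13:119690101-119690350, the Idi1 window chr13:8885356-8885605, and the Dhcr7 windows shown are chr7:143822917-143823166 and chr7:143829964-143830213.
Hmgcs1: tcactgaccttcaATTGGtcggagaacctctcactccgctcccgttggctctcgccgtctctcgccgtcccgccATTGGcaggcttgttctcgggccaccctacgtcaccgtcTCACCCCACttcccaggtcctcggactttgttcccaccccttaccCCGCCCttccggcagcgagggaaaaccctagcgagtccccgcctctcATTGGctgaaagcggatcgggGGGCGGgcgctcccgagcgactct
Idi1: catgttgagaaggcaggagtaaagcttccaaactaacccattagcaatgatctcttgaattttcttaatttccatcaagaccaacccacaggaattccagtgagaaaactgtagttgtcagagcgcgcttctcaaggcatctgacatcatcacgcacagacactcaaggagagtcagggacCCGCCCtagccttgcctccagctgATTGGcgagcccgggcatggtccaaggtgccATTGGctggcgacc
Dhcr7 window 1: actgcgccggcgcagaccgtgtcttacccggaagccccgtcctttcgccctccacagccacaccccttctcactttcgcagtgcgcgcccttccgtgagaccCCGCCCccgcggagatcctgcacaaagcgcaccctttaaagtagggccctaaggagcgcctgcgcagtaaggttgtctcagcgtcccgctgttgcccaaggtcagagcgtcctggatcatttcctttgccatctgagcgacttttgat
Dhcr7 window 3: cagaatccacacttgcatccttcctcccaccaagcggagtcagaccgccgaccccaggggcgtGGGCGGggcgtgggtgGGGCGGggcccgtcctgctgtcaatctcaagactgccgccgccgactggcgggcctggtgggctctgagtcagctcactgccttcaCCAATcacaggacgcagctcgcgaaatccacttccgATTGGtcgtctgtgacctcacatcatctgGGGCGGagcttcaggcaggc

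The Hmgcs1 window held the sterol regulatory element once, with its first base 137 bases before the start, together with 3 CCAAT boxes and 2 GC boxes. None of the other 6 windows of the members held that element. The Idi1 window held 2 CCAAT boxes and 1 GC box. Of the Dhcr7 windows, the first held 1 GC box, the second none of the motifs, and the third 2 CCAAT boxes and 3 GC boxes. Lss and Insig1, which were not lower on every array, held such boxes too. The Lss window held 1 CCAAT box and 2 GC boxes, and the Insig1 window 1 CCAAT box and 3 GC boxes. Among all 32851 windows, 1.05% held the sterol regulatory element, 33.8% a CCAAT box and 32.7% a GC box. These matches describe letters in the windows and were not tested as binding sites.

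Across the 20390 genes, limma with Benjamini-Hochberg adjustment called 0% at an adjusted p under 0.05, while 15.7% had an unadjusted p under 0.05. Over the 26318 kept probes it called 0.437%. Log2 ratios are mutant+CT over wild type throughout. The median gene had a ratio of -0.00. Pearson's r across genes was 0.545 for replicates 1 and 3, 0.376 for replicates 2 and 3, and 0.183 for replicates 1 and 2; genes are not independent. The dyes were swapped on replicate 2 alone, so its dye orientation and its biology cannot be told apart. The number of arrays limits the precision. The targeted gene, Dido1, had 4 kept probes with mean ratios between -2.39 and 3.53, of which the highest passed over all probes (limma, adjusted p = 0.0435). No probe passed with a dye term or without replicate 2 or 3, and where the probes lie relative to exon 16 was not determined, so they do not check the labels. All 10 member probes were well above background in both groups on all 3 arrays, and none was saturated.

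None of the 8 members passed the test over all genes, and 3 of them (Stard4, Dhcr7 and Idi1) had an unadjusted p under 0.05. The smallest adjusted p among them was 0.0985, for Stard4. None of the 10 member probes passed over all probes either. On all 3 arrays 1 member was higher in mutant+CT, against 20.3% of all genes, and 3 were lower, against 17.4% of all genes. The members' median log2 ratio was -0.46, with 0.00, -0.59 and -0.72 on replicates 1 to 3, and the count of members with a lower ratio was 4, 6 and 7 on these arrays. Without replicate 1 the median was -0.83 and 6 members were lower on both remaining arrays, and without replicate 3 the median was -0.26. In RNA of whole embryoid bodies, fewer cells of a type and less RNA per cell cannot be told apart.

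**Figure D1:**
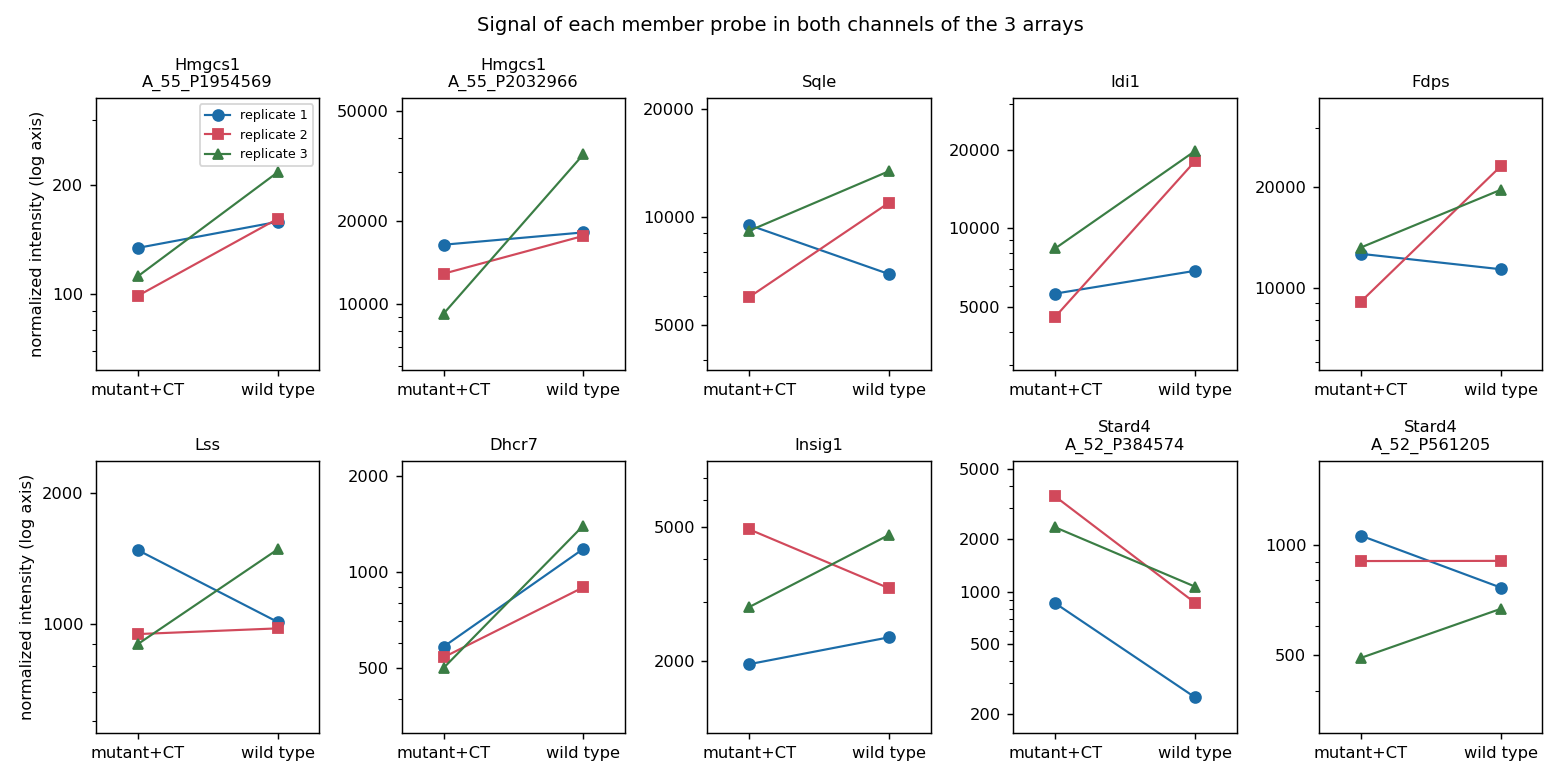
Normalized intensity (log axis) of each of the 10 member probes in mutant+CT (left) and wild type (right), with 1 line for each of the 3 arrays. Lines for Dhcr7 run upward to wild type on all 3 arrays, lines for the Stard4 probe A_52_P384574 run downward, and those for Sqle, Fdps, Lss and Insig1 cross in direction.

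Hmgcs1 condenses acetyl-CoA with acetoacetyl-CoA early in the mevalonate pathway. Its bright probe, A_55_P2032966, had normalized intensities of 16419, 12905 and 9257 in mutant+CT on replicates 1 to 3, against 18188, 17666 and 34765 in wild type. Mutant+CT was lower on every array, and most of the distance came from replicate 3. Intensities were normalized within arrays and not between them, so values on different arrays compare less surely than the pair on 1 array. The log2 ratios were -0.15, -0.45 and -1.91, with a mean of -0.84 ± 0.94 (SD, n = 3; limma, adjusted p = 0.394). Without replicate 3 the mean was -0.30. A dim second probe that the files name Hmgcs1, A_55_P1954569, had ratios of -0.24, -0.70 and -0.94. The description that the files give for that probe names another product, so its identity is uncertain. Both probes lie on the minus strand of the unplaced mm9 sequence 13_random, at 114793 to 114852 for the bright one and 114558 to 114617 for the dim one.

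Idi1 interconverts isopentenyl and dimethylallyl diphosphate, the building blocks of all isoprenoids. Its probe (mm9, chromosome 13, 8891524 to 8891583, plus strand) had intensities of 5612, 4566 and 8361 in mutant+CT, against 6862, 18032 and 19747 in wild type. Mutant+CT was lower on every array, slightly on replicate 1 and clearly on the others. All mutant+CT values but the highest lay below all wild-type values, across arrays not normalized to each other. The share of all genes with such a near-separation is not given here. The log2 ratios were -0.29, -1.98 and -1.24. Their mean of -1.17 ± 0.85 is a 2.25-fold lower signal (limma 95% interval -2.11 to -0.24; unadjusted p = 0.0232, adjusted p = 0.235), and without replicate 2 it was -0.77.

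Fdps joins these units into farnesyl diphosphate, the branch point to sterols, dolichol and prenylated proteins. Its probe (mm9, chromosome 3, 88897549 to 88897608, minus strand) had intensities of 12610, 9078 and 13168 in mutant+CT, against 11346, 22969 and 19555 in wild type. Replicate 1 was slightly higher in mutant+CT and the others lower. The log2 ratios of 0.15, -1.34 and -0.57 averaged -0.59 ± 0.75 (limma, adjusted p = 0.487; 95% interval -1.45 to 0.27). Without replicate 1 it was -0.95, and without replicate 2 it was -0.21.

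Sqle inserts oxygen into squalene and is a control point of the pathway. Its probe (mm9, chromosome 15, 59162688 to 59162747, plus strand) had intensities of 9481, 5976 and 9146 in mutant+CT, against 6923, 10954 and 13410 in wild type. As for Fdps, replicate 1 was higher in mutant+CT and the other arrays were lower. The log2 ratios of 0.45, -0.87 and -0.55 averaged -0.32 ± 0.69 (limma, adjusted p = 0.714; 95% interval -1.15 to 0.50). The mean was -0.71 without replicate 1 and -0.049 without replicate 2.

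Lss cyclizes oxidosqualene to lanosterol, the first sterol. Its probe (mm9, chromosome 10, 76015992 to 76016051, plus strand) had intensities of 1480, 949 and 900 in mutant+CT, against 1012, 978 and 1485 in wild type. The 2 groups overlapped, with replicate 1 higher in mutant+CT, replicate 3 lower and replicate 2 close to even. The log2 ratios were 0.55, -0.04 and -0.72, averaging -0.07 ± 0.64 (limma, adjusted p = 0.945; 95% interval -0.86 to 0.71).

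Dhcr7 reduces 7-dehydrocholesterol to cholesterol in the last step of synthesis. Its probe (mm9, chromosome 7, 151033874 to 151033933, plus strand) had intensities of 583, 540 and 500 in mutant+CT, against 1183, 896 and 1400 in wild type. Every mutant+CT value lay below every wild-type value, and the share of all genes with such a separation is not given here. The log2 ratios of -1.02, -0.73 and -1.49 had the smallest SD of the 8 members, with a mean of -1.08 ± 0.38, or a 2.11-fold lower signal (limma 95% interval -1.71 to -0.45; unadjusted p = 0.00686, adjusted p = 0.153). Over the alternatives that were run the mean lay between -1.25 and -0.88 and the adjusted p between 0.071 and 0.547.

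**Figure D2:**
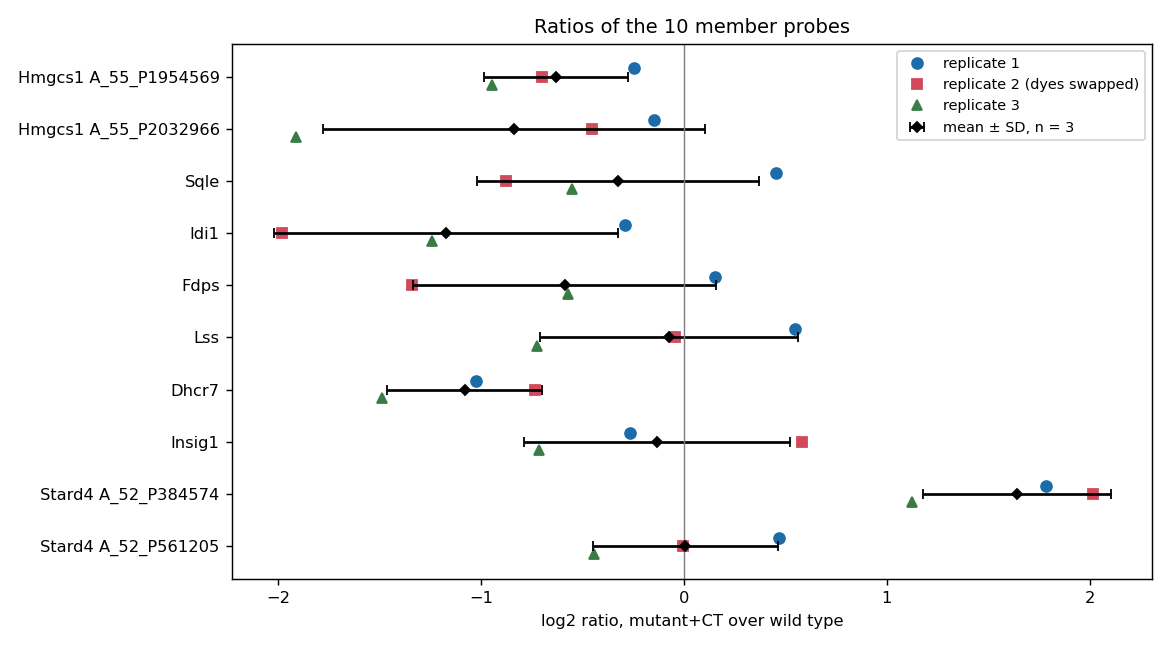
Log2 ratio of mutant+CT over wild type for each of the 10 member probes, by array (coloured symbols) and as mean ± SD over 3 arrays (black diamonds). Idi1, Dhcr7 and both Hmgcs1 probes are below 0 on every array, and the Stard4 probes lie at 1.64 ± 0.46 and 0.01 ± 0.46.

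Insig1 is the sterol-sensing brake on SREBP processing and is itself an SREBP target. Its probe (mm9, chromosome 5, 28404246 to 28404305, plus strand) had intensities of 1956, 4914 and 2891 in mutant+CT, against 2350, 3285 and 4733 in wild type. Only the dye-swapped replicate 2 was higher in mutant+CT. The log2 ratios of -0.26, 0.58 and -0.71 averaged -0.13 ± 0.66 (limma, adjusted p = 0.901; 95% interval -0.93 to 0.67). The mean was 0.05 with a dye term in the model and 0.16 without replicate 3.

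Stard4, a soluble cholesterol carrier, is represented by 2 probes that gave different answers. Probe A_52_P384574 (mm9, chromosome 18, 33361181 to 33361240, minus strand) had intensities of 861, 3506 and 2335 in mutant+CT, against 250, 867 and 1071 in wild type. Mutant+CT was higher on every array. The log2 ratios of 1.78, 2.02 and 1.13 averaged 1.64 ± 0.46, or 3.12-fold (limma 95% interval 0.96 to 2.32; unadjusted p = 0.00141, adjusted p = 0.0985 over genes). It was the 1 member at least 2-fold higher on every array, as were 1.9% of all genes. No member was at least 2-fold lower on every array, against 0.991% of all genes.

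Probe A_52_P561205 of the same transcript had intensities of 1059, 903 and 492 in mutant+CT, against 765, 904 and 669 in wild type. It was higher in mutant+CT on replicate 1, even on replicate 2 and lower on replicate 3. Its log2 ratios of 0.47, -0.00 and -0.44 averaged 0.01 ± 0.46 (limma over all probes, adjusted p = 0.993). It lies 5′ of the other probe on the same strand, at 33365863 to 33367852. That span of 1990 bases exceeds the probe's 60 bases, so the probe crosses a gap in the genome alignment, while the other spans exactly 60. The probes' mean ratios differed by 1.63, a distance reached by 120 of the 3899 genes with exactly 2 kept probes (3.08%), whose median difference was 0.26. With the mean of both probes, Stard4 had a ratio of 0.82. The level of Stard4 RNA as a whole is therefore uncertain.

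The same arrays hold 15 other enzymes of cholesterol synthesis, of which 2 were higher and 7 lower on every array and none passed the test. Their median log2 ratio was -0.38, beside -0.00 for all genes, and it was -0.61 without replicate 1 and -0.12 without replicate 3. With the members, 10 of 21 enzymes were lower on every array and 2 higher, 5 had an unadjusted p under 0.05, and the median was -0.41. Without replicate 1 that median was -0.71, and without replicate 3 it was -0.19. Among all genes, 17.4% were lower on every array, 20.3% were higher and 15.7% had an unadjusted limma p under 0.05. Msmo1, which removes methyl groups from sterols, had ratios of -0.60, -0.88 and -1.77 with a mean of -1.08 ± 0.61 (limma, adjusted p = 0.199). Mvd, the decarboxylase that makes isopentenyl diphosphate, averaged -0.71 ± 0.60 (limma, adjusted p = 0.347), and -0.40 without replicate 3.

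**Figure D3:**
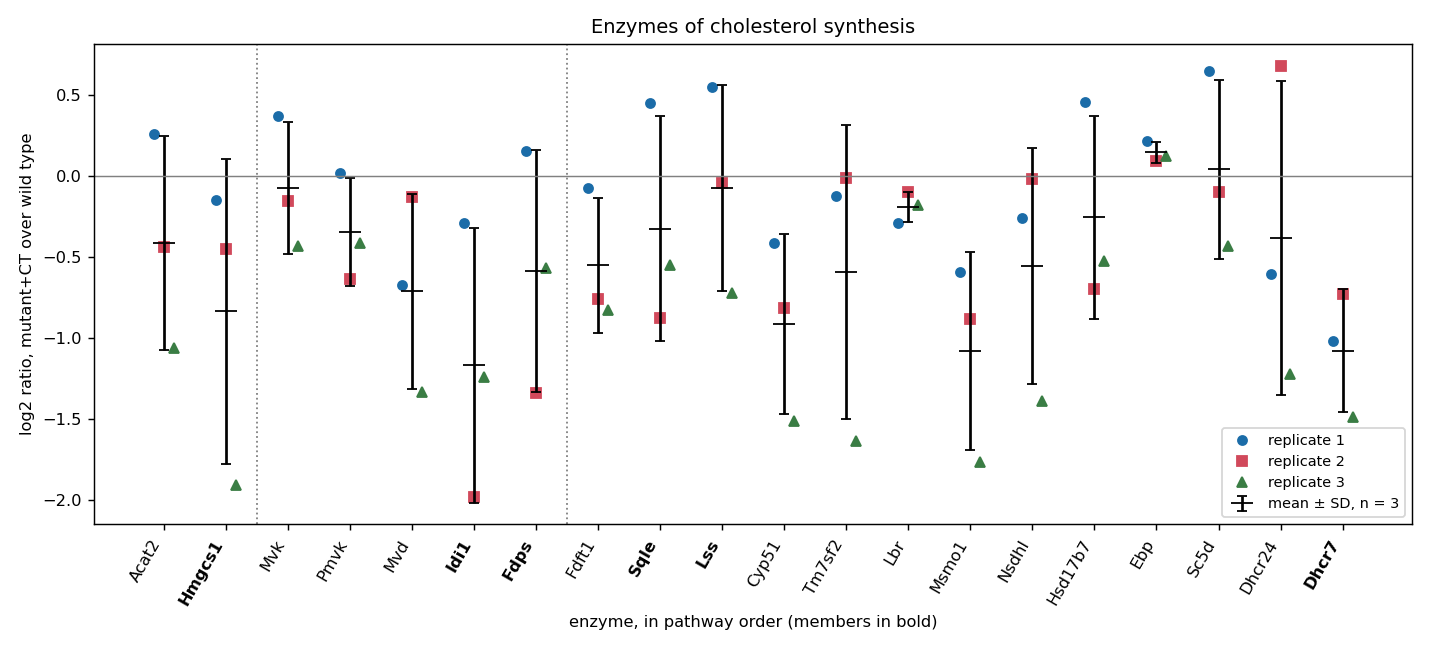
Log2 ratio of mutant+CT over wild type for 20 of the enzymes in pathway order, by array (coloured symbols) and as mean ± SD over 3 arrays (black bars), with the members in bold. Most means lie below 0, and the arrays spread widely for most enzymes.

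The shares of all genes, 17.4% lower and 20.3% higher on every array, stand beside the counts of each list that follows. Of the 7 genes of SREBP sensing and processing, 1 was lower on every array, none was higher and none had an unadjusted p under 0.05. Srebf1, which encodes the SREBP of fatty acid synthesis, had the smallest p of them and averaged -0.35 ± 0.52 (limma, adjusted p = 0.627). Of the 5 START carriers, Stard4 alone was higher on every array and none was lower. Stard3, a late endosomal carrier, averaged -0.26 ± 0.30 (limma, adjusted p = 0.68).

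On every array, 5 of the 14 oxysterol-binding and GRAMD sterol transfer genes were higher and 3 were lower. Gramd1b, which carries cholesterol from the plasma membrane to the endoplasmic reticulum, had ratios of 2.12, 1.83 and 2.11 with a mean of 2.02 ± 0.17, or 4.05-fold (limma, adjusted p = 0.0735). Its other kept probe averaged 1.22. For uptake and lysosomal export the counts were 4 higher and 1 lower of 8 genes. Lipa, the lysosomal acid lipase that frees cholesterol from its esters, had ratios of 1.12, 2.08 and 1.01 with a mean of 1.40 ± 0.59 (limma, adjusted p = 0.136).

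For efflux, esterification and LXR signalling they were 5 higher and 2 lower of 11 genes, and Soat2, which esterifies cholesterol, averaged 0.88 ± 0.18 (limma, adjusted p = 0.169). Of 9 genes of isoprenoid branches, 1 was higher and 3 lower, and Fnta, the shared alpha subunit of protein prenyltransferases, averaged 1.49 ± 0.75 (limma, adjusted p = 0.15). Of 10 SREBP targets of fatty acid synthesis, none was higher and 5 were lower on every array, with a median of -0.43 that was -0.71 without replicate 2 and -0.27 without replicate 3. Scd1, a fatty acid desaturase, had ratios of -0.87, -1.51 and -2.43 with a mean of -1.60 ± 0.79 (limma, adjusted p = 0.142). None of the genes of these lists passed the test.

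**Figure D4:**
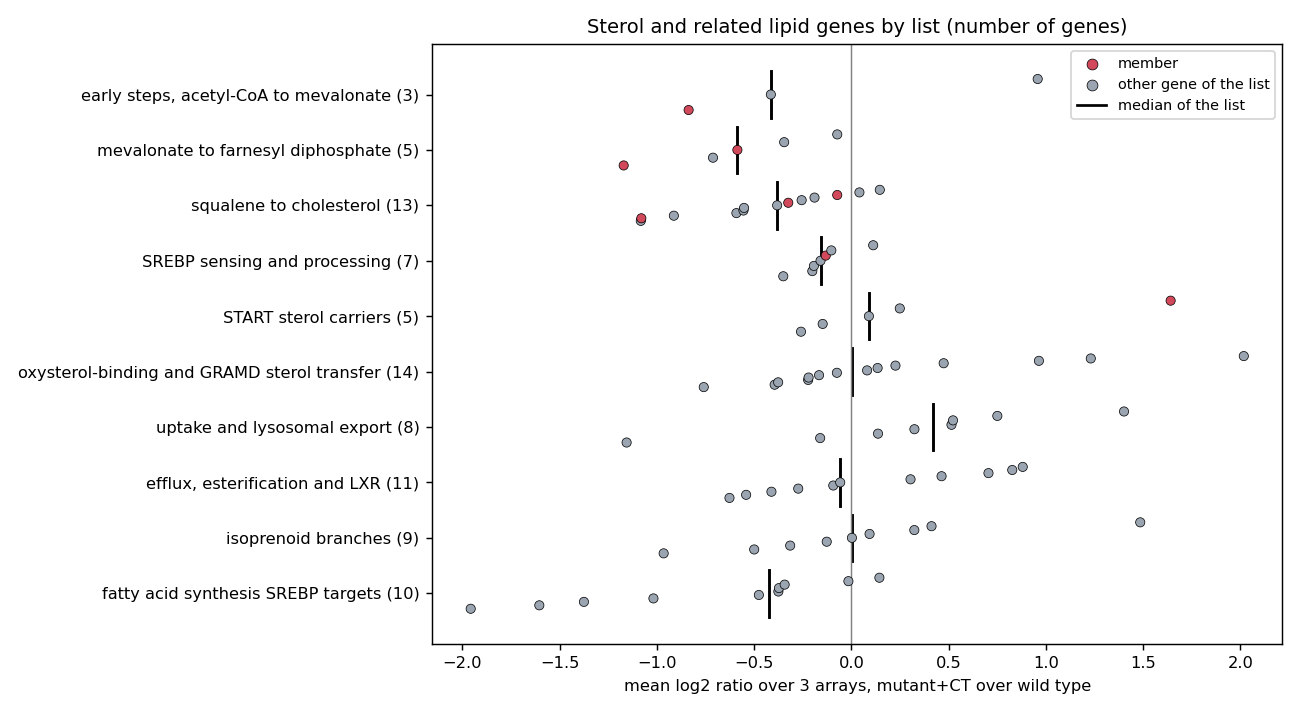
Mean log2 ratio over 3 arrays, mutant+CT over wild type, for each gene of the 10 sterol and related lipid lists, with members in red, other genes in grey and the median of each list as a black bar. The medians of the 3 synthesis lists and of fatty acid synthesis lie below 0, at -0.59 to -0.38, and Gramd1b is the highest point at 2.02.

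The 5 genes whose ratios lay nearest to the members' median on the 3 arrays were Rftn2, Lgi1, Kiz, Stau2 and Pfkfb4, at Euclidean distances of 0.0336 to 0.0797 over 3 points. Of the 20390 tested genes, 792 outside the members lay within 0.5 of the members' median profile, so that median profile is not particular to the members. The median profile (0.00, -0.59 and -0.72 on replicates 1 to 3) is that of no single member, and the members' own distances from it are not given here. These genes and this count therefore describe the median and not what the members share.

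Markers of several cell types had median ratios away from 0 in the same RNAs. No marker passed the test over all genes (limma, smallest adjusted p = 0.0845). Naive pluripotency markers had a median ratio of 1.26 (8 of 9 higher on every array), neural progenitor markers -3.15 (5 of 6 lower), visceral endoderm markers 1.13 (7 of 7 higher) and primitive and parietal endoderm markers -1.48 (6 of 7 lower). Cardiomyocyte markers had medians of 3.79, -0.87 and -0.73 on replicates 1 to 3, and mesenchyme markers 3.30, -2.16 and -1.29. By list median, replicate 1 stood above the others for these and for visceral endoderm (2.47, 1.36 and 0.69). Its median stood below the others for naive pluripotency (0.77, 1.28 and 1.91) and neural progenitor markers (-4.03, -1.72 and -3.78). The same held for primitive and parietal endoderm (-1.72, -1.50 and -0.94). Single genes did not all follow: Trf and Amn were highest on replicate 2, and Pou5f1 and Klf2 were lowest there. Of the neural markers, Sox1 and Hes5 were lowest on replicate 1, and Pax6, Fabp7, Nes and Sox3 on replicate 3. Lama1 and Thbd were lowest on replicate 1, Sox7, Sox17 and Gata6 on replicate 2, and Gata4 and Col4a1 on replicate 3. Of 4 steroidogenic markers, 3 were tested and had a median of -0.15, with 1 higher on every array and none lower. The higher one, Hsd3b1, averaged 0.96 ± 0.23 (limma, adjusted p = 0.155). It was dim, being well above background on 1 array in wild type and on 3 in mutant+CT. The part of these cell types in the members' ratios was not tested.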

How the data were processed

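RNA of mutant+CT and wild-type embryoid bodies was hybridised together on 3 Agilent arrays, 1 µg of total RNA being amplified and 300 ng of cRNA used per dye, per the labels' protocols. All of them share 1 slide and 1 scan. Deposited with each array is the intensity of every spot and of the background around it in both dyes, written by Agilent Feature Extraction 10.7.3.1 with mm9 positions, per the file headers. The scanner output also gives Agilent's processed intensity and its log10 ratio (red to green), both as deposited; the second served only to find the direction. The deposited value table gives normalized log2 ratios. Per the submitters' processing notes limma was used, and the other steps are not given in the sources used here. Its column medians are -0.02, 0.01 and -0.01, and it follows the ratios computed here with correlations of 0.996, 0.997 and 0.999, as mutant+CT over wild type.

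The software was limma 3.58.1 and statmod 1.5.0 under R 4.3.3. Steps were normexp background correction (offset 50), loess within arrays with control spots at weight 0, and outlier spots set to missing. Figures were drawn with Python 3.11.15 and matplotlib 3.10.9. Spots were named through RefSeq accessions (30708 of 43020) or else by the files, and sequences come from RefSeq on GRCm38.p6. A probe was kept if most of its spots were well above background on all 3 arrays in either group and it was measured on all 3, which kept 26318 of 39429 probes. Both details of that rule were settled after results had been seen, to match probe and gene counts of an earlier analysis of these files, and the other forms tried are given with the processing alternatives. The brightest kept probe stands for its gene, and ratios were tested against 0 with limma and Benjamini-Hochberg adjustment over all genes or all kept probes at adjusted p under 0.05. P-values set the mean ratio against the spread between these arrays alone, which limma moderates for each gene toward that of all genes.

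The members, gene lists, marker lists and motifs were chosen with earlier results of these data known. Named are all members, the other gene with the smallest p in each list, other list genes at least 2-fold apart one way on every array, and the 5 genes nearest to the members' median; some items are not reported here. In a simulation over 20390 genes, the gene-level step recovered 0 of 50 genes changed by 1 on the log2 scale, 12 of 50 changed by 2, 29 of 50 changed by 3 and 43 of 50 changed by 4. It called 3 of 20190 unchanged genes. Alternatives covered background, normalization, probe filters, probes per gene, the value table, a dye term, the variance model, the threshold and each replicate left out.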

Additional observations from a re-analysis of the deposited data

How the results depend on the processing

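Under 18 alternatives no member passed an adjusted p under 0.05, with the smallest member's adjusted p between 0.071 and 0.202. The 0.071 was that of Dhcr7 with channels fitted separately in limma, where Stard4 had 0.131. At an adjusted p under 0.1, 1 member gene and 1 member probe were called (Stard4, ratio 1.64). Stard4 missed that threshold with no background subtraction (0.107), median centring (0.112), channels fitted separately (0.131), no filter on dim probes (0.172), a dye term (0.194) and the mean of all probes (0.217), and at 0.133, 0.171 and 0.202 without replicates 1, 2 and 3. It also turned on the rule for keeping probes, of which 3 other forms were added after seeing the data. Stard4 had an adjusted p of 0.0985 as reported, 0.0982 with all spots of a probe required above background, 0.101 with probes missing on an array kept and 0.1 with both changes. The kept probes called overall were 115, 115, 36 and 36 in that order. They were 0 with a dye term, without replicate 2, without replicate 3 or with no filter on dim probes, and 754 on Agilent's processed signals. Genes called overall were 0 as reported, 474 when channels were fitted separately, 323 from Agilent's signals, 176 when the variance prior was trended and robust, 159 without replicate 1 and 12 with the filter in both channels. The members' median stayed between -0.60 and -0.44 over the scalings and a dye term, and between -0.83 and -0.26 with 1 array left out. Members lower on every remaining array numbered 3 to 6, with 6 without replicate 1, and members higher stayed at 1. The shares of all genes for the arrays that remain are not given here. The sign turned for the Stard4 probe A_52_P561205 with no background subtraction (-0.0044), Agilent's processed signals (-0.075), the deposited table (-0.03) and without replicate 1 (-0.22). It also turned for Insig1 with a dye term (0.047) and without replicate 3 (0.16), and for Lss without replicate 3 (0.25). With 1 array left out, that Stard4 probe ranged from -0.22 to 0.23, Insig1 from -0.49 to 0.16 and Lss from -0.38 to 0.25. The causes were not tested. Over all alternatives Hmgcs1 ranged from -1.18 to -0.30, Idi1 from -1.61 to -0.77 and Stard4 from 0.82, with the mean of both probes, to 1.90. With 1 array left out, Stard4 by its brightest probe ranged from 1.45 to 1.90. The ratio of each array pairs 1 mutant+CT with 1 wild-type RNA, so the reported test is itself the paired one.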

Other observations

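Genes in this paragraph were picked after their values were seen. Cyp51, the lanosterol demethylase, had a mean log2 ratio of -0.91 ± 0.56 (SD, n = 3; limma, adjusted p = 0.237). The desaturases Scd2, Fads1 and Fads2 averaged -1.96 ± 1.68, -1.37 ± 0.81 and -1.02 ± 0.69 (limma, adjusted p = 0.244, 0.178 and 0.237). Osbpl10 and Osbpl3, of the oxysterol-binding family, averaged 1.23 ± 0.62 and 0.96 ± 0.38 (limma, adjusted p = 0.168 and 0.178).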
